A study of Mus musculus with 2 samples.

Results

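Cluster 13 of the authors' annotation is a group of 347 of 12544 annotated cells of mouse dura at postnatal day 14. The dura is the outermost of the membranes that wrap the brain. Its members are the cells to which the authors gave cluster number 13, with 167 of 5950 cells in the library from Il33 heterozygous mice (het) and 180 of 6594 in the library from Il33-deficient mice (KO). Both genotypes carry the H2B-mCherry allele at Il33, on 1 chromosome in het and on both in KO, so the controls have 1 intact copy. The labels give no strain. Tissue of 5 to 8 mice per genotype and sex was pooled into 1 library per genotype. After a digest of 30 minutes at 37 degrees C, sorted CD45+CD11b- immune cells, sorted gp38+CD31- stroma and unsorted viable cells were mixed 1:1:2. Cells with the myeloid surface protein CD11b could thus enter through the unsorted part but not through the sorted immune part.

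Neutrophils are short-lived phagocytes that are made in bone marrow, also in the marrow of the skull next to the dura. Their granules are filled in order as the cell matures. Primary granule genes such as Elane, Prtn3 and Mpo are transcribed in dividing promyelocytes, secondary granule genes such as Ngp, Camp, Ltf and Lcn2 in myelocytes, and tertiary granule genes such as Mmp9 later. Receptors such as Cxcr2 mark the mature cell, while Csf3r is also found at earlier stages. The cytokine IL-33 acts through the receptor encoded by Il1rl1 and through NF-kB, a family of transcription factors that switch on inflammatory genes.

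The cluster was led by neutrophil genes. The 20 genes highest by fold over all other annotated cells included Ngp, Camp, S100a9, Retnlg and Lcn2, the markers that give the cluster its working name, as well as Ltf, Chil3, Mmp8, Pglyrp1 and Cd177. S100a9 and S100a8, subunits of the calcium-binding protein calprotectin, stood at 58569 and 50816 UMIs per 1000000 UMIs of the cluster (CPM) over both libraries, against 146 and 168 CPM in all other cells. Ngp, neutrophilic granule protein, stood at 10635 CPM against 19.8, and Camp, the precursor of the antimicrobial peptide cathelicidin, at 13529 against 29.6. Stfa1, Stfa2, Stfa2l1, Stfa3, BC100530 and Gm5483 were also among the 20. They are near-identical stefin genes, so the split of counts among them is uncertain. These genes took part in the clustering, so the values are a description.

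Many of the cells also carried macrophage transcripts. The sum of 8 macrophage markers (C1qa, C1qb, C1qc, Mrc1, Pf4, Cd209f, Lyve1 and Adgre1) fell into separate ranges, with 146 cells at 10 or fewer UMIs per 10000, 187 cells at 40 or more, and 14 between. At a limit of 20 per 10000, 196 cells were macrophage-marker-high (98 het and 98 KO) and 151 were low (69 het and 82 KO). The nearest cells on each side were at 19.6 and 23.8. The high cells had a median of 113 marker UMIs per 10000, against 195 in cluster 3, a macrophage-like cluster, and 1.15 in the low cells. C1qa, a subunit of complement C1q, is 1 of the 8 markers, so its difference between high and low cells follows from the split. After each cell was thinned to 1000 UMIs it was found in 82.7% of the high het cells and 87.8% of the high KO cells. In the low cells it was found in 2.90% and 9.76%, and in the B cell-like cluster 1, which should lack it, in 1.09% and 1.21%. Without thinning the shares were 100% and 100% in high cells, 17.4% and 29.3% in low cells, and 3.25% and 4.46% in cluster 1, at median depths of 22546.5 and 24999, 9696 and 12226, and 3934.5 and 4178 UMIs.

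**Figure D1:**
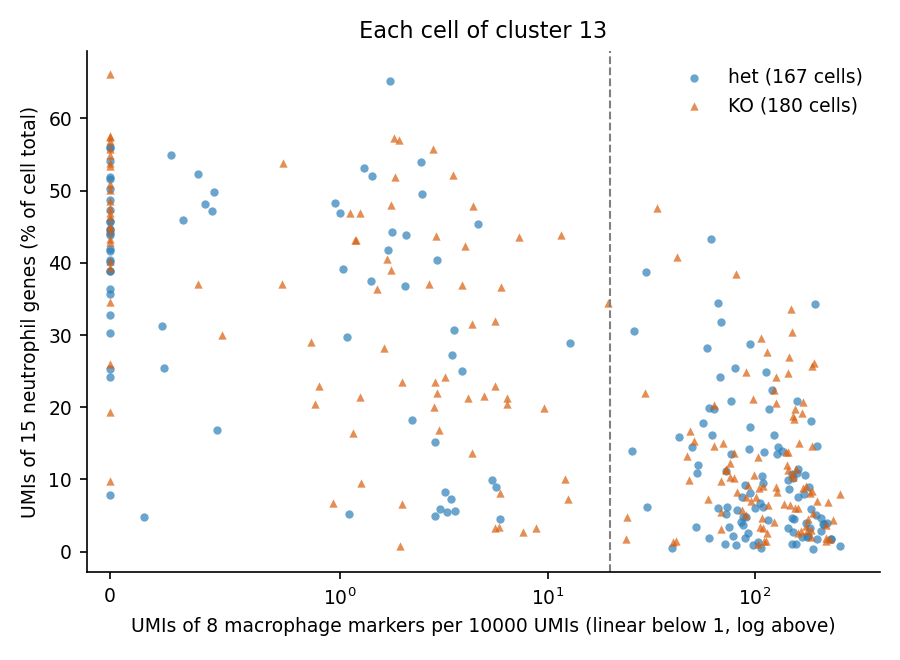
Each point is a cell of cluster 13 (circles het, triangles KO). The x axis gives UMIs of 8 macrophage markers per 10000 UMIs, linear below 1 and logarithmic above, the y axis the percent of the cell's UMIs from 15 neutrophil genes, and the dashed line the limit of 20. Of 347 cells, 196 lie right of the line and 151 left of it.

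Both sets carried neutrophil transcripts. The summed share of 15 neutrophil genes had a median of 40.4% of a cell's UMIs in low het cells and 37.0% in low KO cells. In high cells it was 7.61% in het and 9.09% in KO, with a range over both of 0.406 to 47.6%. The plot of macrophage against neutrophil UMIs shows both sets in both libraries. High cells also had more UMIs (median 24426 against 11364), more genes (4734 against 2125) and a larger mitochondrial percentage (5.62 against 1.23).

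Cells with at least 100 UMIs of the 15 neutrophil genes were mostly in cluster 13, as its choice implies, and few lay outside it. Of all 1452 annotated cells over the macrophage limit, 207 had that many, or 14.3% (Clopper-Pearson 12.5 to 16.2), and 196 of the 1452 were cells of cluster 13. Of all cells with markers of fibroblasts or osteolineage cells 1.05% had that many, with B cell markers 0.381%, with dendritic cell markers 4.02% and with endothelial markers 0.968%. Outside cluster 13 the share was 14 of 1256 macrophage-marker cells (1.11%, 0.611 to 1.86) and 12 of 1324 dendritic-marker cells (0.906%, 0.469 to 1.58), with overlapping intervals. It was 11 of 5378 fibroblast-marker cells (0.205%) and 2 of 4450 B cell-marker cells (0.0449%). A cell counted as having other markers when it held at least 0.1 of the median of that class's own cluster. In cluster 13, 344 of 347 cells had at least 100 such UMIs. Scrublet's top 5% of each library held 23 of the 196 high cells, 6 of the 151 low cells and 203 of the 886 cells of cluster 3. Whether a barcode held more than 1 cell was not tested. No barcode of cluster 13 was shared between the libraries, and 14 were shared among all annotated cells.

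Leaving out also the low cells with markers of fibroblasts, B cells, dendritic cells or endothelium left 120 cells, called marker-low here (57 het and 63 KO). In them the neutrophil genes made up a median of 43.9% of UMIs in het and 40.5% in KO. Results below are given for all 347 cells and, where they differ, for these sets. All cells together held 3511337 het and 4053028 KO UMIs, and marker-low cells 836153 and 843596.

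The upstream sequences of 2 secondary granule genes among the 20 leading genes are shown. C/EBP factors, among them Cebpe, act on such genes as textbook regulators. Capitals mark matches to a C/EBP-type motif, TTNNGNAA on either strand. The windows end just before the annotated gene start, and the sequences are RefSeq GRCm38.p6, plus strand.
Ngp (chr9:110419558-110419746): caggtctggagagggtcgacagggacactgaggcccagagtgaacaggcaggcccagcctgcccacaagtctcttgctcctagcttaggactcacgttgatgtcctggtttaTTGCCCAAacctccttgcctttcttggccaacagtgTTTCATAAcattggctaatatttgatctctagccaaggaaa
Ltf (chr9:111019042-111019270): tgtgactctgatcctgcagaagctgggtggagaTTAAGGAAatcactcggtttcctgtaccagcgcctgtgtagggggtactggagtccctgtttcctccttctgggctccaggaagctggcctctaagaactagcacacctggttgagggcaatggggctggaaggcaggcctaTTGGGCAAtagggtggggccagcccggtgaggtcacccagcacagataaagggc
Each of these windows holds 2 matches. The windows of Elane and Retnlg were also searched and held 0 and 1. Of 32536 promoters, 31.1% hold at least 1 in a window like that of Ngp and 35.0% in one like that of Ltf, so a match alone is common.

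A stage score ordered the cells by their granule genes. It was the share of late genes (Retnlg, Mmp8, Mmp9, Cxcr2 and Stfa2l1) among UMIs of late and early genes (Ngp, Camp, Ltf, Lcn2 and Chil3), and the cells were split by it into an early, a middle and a late range of like size, which are ranges and not cell types. Of 118 scored marker-low cells, 35 were under 0.1 and 36 at 0.9 or above, and 12 lay within 0.05 of a boundary between ranges. Cells were deepest in the early range, with a median of 21147 UMIs, against 9696 in the middle and 5144.5 in the late range. Macrophage markers had medians of 0.383, 0.148 and 2.90 UMIs per 10000, and fibroblast or osteolineage markers 4.55, 10.4 and 13.9, in the early, middle and late range.

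Genes outside the score differed along it in the pooled marker-low cells. Elane, the protease of primary granules, was at 1495 CPM in the early range, 0 in the middle and 128 in the late range. The late value came from 1 KO cell, as 35 UMIs in 2.50% of the late cells. Cebpe, a transcription factor needed for secondary granules, was at 604, 197 and 65.6 CPM, and Fcnb, the lectin ficolin B, at 986, 4.14 and 40.1. Cybb, the membrane subunit of the NADPH oxidase, was at 1333, 923 and 383 CPM. All 4 genes were highest early in both libraries, with Elane there at 2018 CPM in het and 743 in KO.

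Receptor and inflammatory genes ran the other way. Csf3r was at 56.5, 151 and 488 CPM. Cebpb, a factor of mature and activated myeloid cells, was at 586, 1072 and 2321 CPM. Ccl6, a chemokine, was at 47.6, 190 and 1508, and Il1b, which encodes interleukin-1 beta, at 284, 238 and 2955. Cxcr4, the receptor that holds neutrophils in marrow, was at 49.8, 49.7 and 237. Several lists were higher late as a whole. All 13 measured receptors for growth factors and cytokines and all 18 immediate early genes were higher late than early, against 3299 of all 5700 genes. Of cell cycle genes, 25 of 26 were lower late, against 2398 of 5700. Markers of other cell types were higher late too, with 9 of 9 monocyte (median log2 1.98), 4 of 4 mast cell or basophil (4.24), 6 of 6 macrophage (1.36) and 8 of 8 fibroblast or osteolineage markers (1.24). Their part in the late values was not tested.

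**Figure D2:**
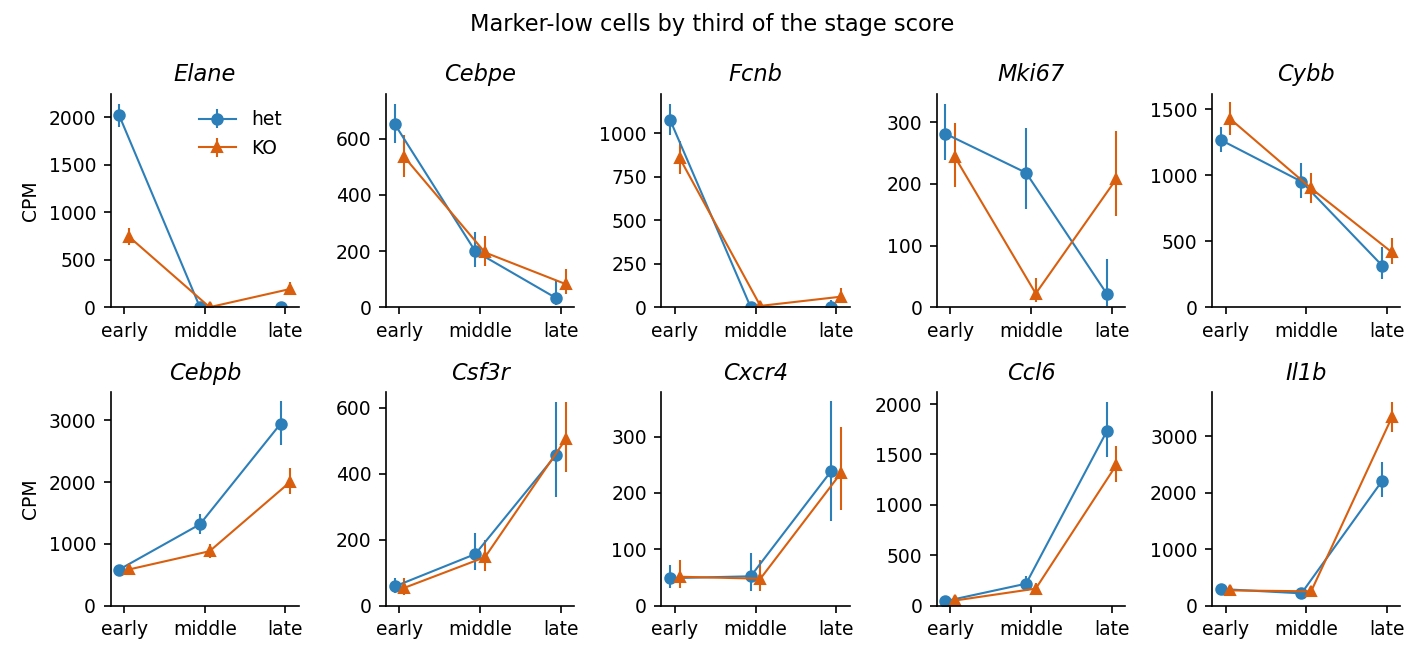
CPM of 10 genes outside the stage score in the early, middle and late range of 118 marker-low cells (circles het, triangles KO; bars are exact 95% Poisson intervals; each y axis is linear from 0). Elane, Cebpe, Fcnb and Cybb are highest early, and Cebpb, Csf3r, Cxcr4, Ccl6 and Il1b late, while Mki67 has no common order in the libraries.

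The share of cluster 13 was alike in the libraries. It was 2.81% of annotated cells in het (Clopper-Pearson 2.40 to 3.26) and 2.73% in KO (2.35 to 3.15), a KO/het ratio of 0.973 (0.783 to 1.21). Among cells of the myeloid clusters it was 13.8% in het and 13.9% in KO. The share of scored cells in the late range was 32.9% in het (25.7 to 40.8) and 33.7% in KO (26.8 to 41.2), over all 336 scored cells. In marker-low cells the early range held 23 of 57 het and 16 of 61 KO cells, KO/het 0.650 (0.321 to 1.29). The sort sets these shares in part.

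Across all genes the libraries were close. Of 6899 genes compared, 166 (2.41%) were at least 1.5-fold higher in KO and 140 (2.03%) at least 1.5-fold lower, and the median log2 KO/het was 0.018. With 1 library per genotype no test was possible, and genotype, animals and preparation cannot be told apart. Of 11230 genes with at least 20 UMIs, the minimum used for gene lists, 7.8% were 1.5-fold higher and 6.36% lower, and 46.2% were lower and 53.8% higher by any amount, with a median of 0.024. The same minimum left 5765 genes in marker-low cells (11% lower and 14.1% higher by 1.5-fold; 45.6% lower and 54.4% higher by any amount; median 0.065). In macrophage-marker-high cells it left 10673 genes (6.64% lower by 1.5-fold, 47.8% lower by any amount, median 0.015).

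Primary granule genes were lower in KO and rested on few cells. Of 9 measured, 5 were at least 1.5-fold lower and 1 higher, with a median log2 ratio of -1.32 against 0.024 for all genes. Elane (chr10:79886247-79888215, plus strand) was at 313 CPM in het and 77.0 in KO (KO/het 0.246, 0.216 to 0.279). Prtn3, a second serine protease, was at 273 and 76.2 CPM, and Ms4a3, a membrane protein of granulocyte progenitors, at 53.0 and 14.1. At least 10 UMIs of 5 such genes were found in 6 of 167 het and 4 of 180 KO cells. A single het cell held 543 of 1098 Elane UMIs, and a single KO cell 269 of 312; without these cells KO/het was 0.0671. In cells labelled male the list median was 0.12, and in cells labelled female -1.92. All 179 cells of the cluster labelled female held an Xist UMI and none of the 168 labelled male did, and the female-labelled cells were deeper (median 21944 against 14053.5 UMIs), so shallow female cells may carry the male label. Ctsc, the protease that activates granule proteases, was at 585 and 618 CPM.

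Secondary granule genes differed little as a group but not gene by gene. Of 16 measured, 7 were lower and 9 higher in KO, with a median log2 of 0.041; 1 was 1.5-fold lower and 1 higher. Ngp was at 10951 CPM in het and 10361 in KO, Ltf, the iron-binding lactoferrin, at 2479 and 2763, and Lcn2, which binds bacterial siderophores, at 4717 and 4972. Camp was lower in KO, at 14855 and 12380 CPM. Chil3, a chitinase-like protein, was at 2137 and 1431 CPM (ratio 0.670), and Fcnb at 226 and 117 (0.517, 0.461 to 0.580). In marker-low cells Camp was at 36308 and 25160 CPM and Chil3 at 5589 and 3157. Both are early genes of the score, and the early range held fewer marker-low KO cells; its part in these values was not tested. Without cells holding an Mki67 or Top2a UMI, Fcnb had a log2 ratio of 0.54, Camp 0.43 and Chil3 0.41, opposite to those over all cells. The list then had a median of 0.30. This choice left out 55 of 167 het and 40 of 180 KO cells, and its effect on the mix of stages was not tested.

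Later genes lay close to equal or slightly higher in KO. Of 10 tertiary granule and maturation genes, 9 were higher, none by 1.5-fold, with a median log2 of 0.16. Mmp9, a gelatinase, was at 521 CPM in het and 615 in KO, and Slpi, a protease inhibitor, at 478 and 601. Retnlg, a resistin-like protein, was at 4643 and 4761. In marker-low cells all 10 were higher, 1 of them by 1.5-fold (Trem1, an activating receptor, at 218 and 383 CPM), with a median of 0.30. The list median was -0.068 in male cells and -0.013 without cells holding an Mki67 or Top2a UMI. Of 23 mature neutrophil genes, 16 were higher and 1 was 1.5-fold lower, with a median of 0.032. S100a9 was at 58506 and 58622 CPM, Cxcr2 at 163 and 173, and Csf3r at 129 and 122. In marker-low cells Cxcr2 was at 227 and 324 CPM (KO/het 1.42, 1.18 to 1.72) and Csf3r at 127 and 194 (1.53, 1.19 to 1.98). Cxcr2 is a late gene of the score, and Csf3r was highest in the late range. That range held 17 of 57 het and 23 of 61 KO scored marker-low cells. Its part in the marker-low values was not tested. The mature neutrophil gene 1.5-fold lower over all cells was Clec4e, the receptor Mincle, at 90.0 and 53.3 CPM (KO/het 0.592, 0.496 to 0.706). In marker-low cells Clec4e was at 144 and 117 CPM (0.818, 0.620 to 1.08). The 7 genes of the NADPH oxidase had a median of -0.039, with Cybb at 692 and 673 CPM.

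**Figure D3:**
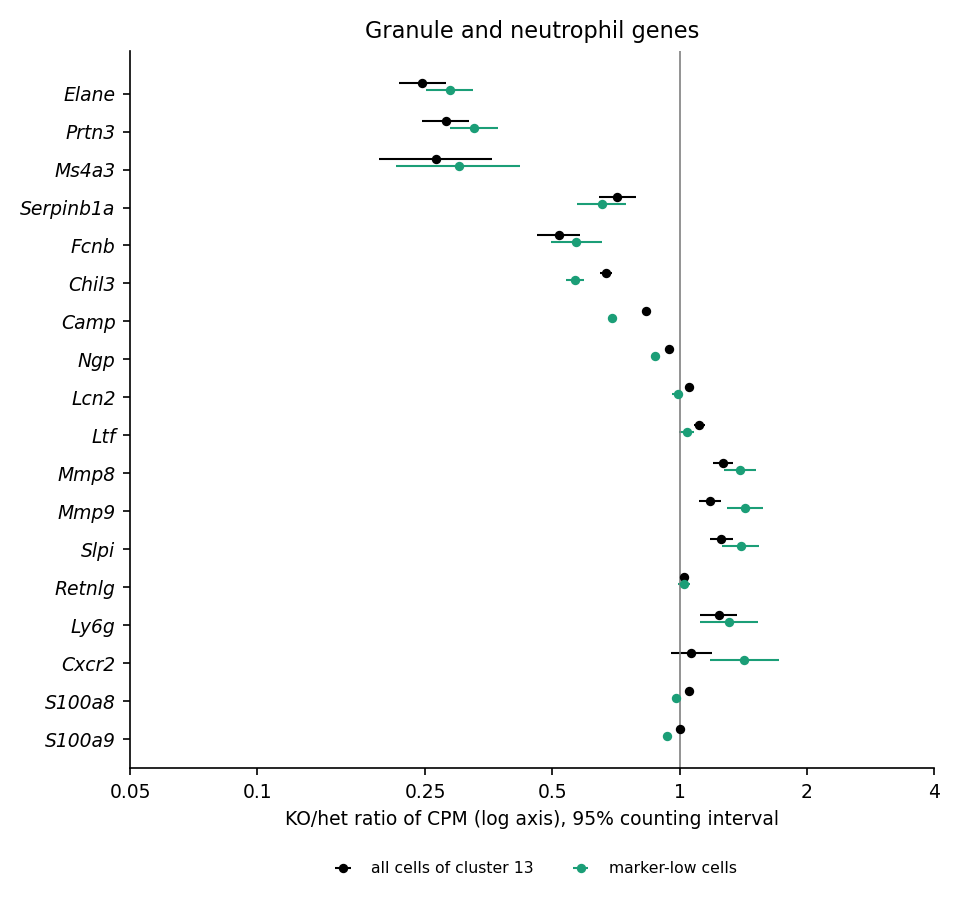
KO/het ratio of CPM on a log axis for granule and neutrophil genes, in all cells of cluster 13 (black) and marker-low cells (green), with 95% counting intervals. Elane, Prtn3 and Ms4a3 lie below 0.5, and Chil3 and Fcnb between 0.5 and 0.7. In marker-low cells Camp (0.693) and Serpinb1a (0.654) also lie in that range. Genes of later stages lie near or above 1.

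Cell cycle genes were lower in KO in every member measured. All 26 were lower, 12 of them by 1.5-fold, with a median log2 of -0.56. Mki67, a marker of dividing cells, was at 121 CPM in het and 50.8 in KO, and Top2a, a topoisomerase of dividing cells, at 122 and 48.9. A UMI of either was found in 55 of 167 het cells (32.9%, 25.9 to 40.6) and 40 of 180 KO cells (22.2%, 16.4 to 29.0). UMIs of 3 or more cell cycle genes were found in 88.6% of het and 88.9% of KO cells, and in 24.6% and 17.8% after thinning to 1000 UMIs. B cell-like cluster 1 had 17.8% and 15.8% after thinning, so these calls are not read as cycling. The list median was -0.66 in macrophage-marker-high cells, -0.37 in marker-low cells and -0.61 in cluster 3. Without cells holding an Mki67 or Top2a UMI it was -0.10. Both genes are members of the list, so leaving out these cells takes away list UMIs by construction.

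Most NF-kB targets were lower in KO. Of 18 measured, 17 were lower and 6 at least 1.5-fold lower, with a median log2 of -0.37. Nfkbia, which encodes the NF-kB inhibitor I-kappa-B alpha, was at 828 CPM in het and 302 in KO (KO/het 0.365, 0.341 to 0.390). In macrophage-marker-high cells it was at 983 and 368 CPM, and in marker-low cells at 420 and 124. Nfkbiz, a nuclear co-regulator, was at 442 and 164 CPM, and Tnfaip3, the feedback inhibitor A20, at 105 and 37.3. Icam1, an adhesion molecule for leukocytes, was at 101 and 42.7 CPM. In high cells 16 of 18 measured targets were lower, 7 of them by 1.5-fold, with a median of -0.44. In marker-low cells 10 of 15 were lower, with 3 lower and 3 higher by 1.5-fold and a median of -0.28. In cluster 3 all 18 were lower, with a median of -0.60 against -0.010 for all its genes.

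Inflammatory cytokine and chemokine genes were mostly lower in KO. Of 17 measured, 15 were lower, 9 at least 1.5-fold, with a median of -0.74. Cxcl2 (chr5:90903871-90905938, plus strand), a chemokine that draws neutrophils through Cxcr2, was at 1139 CPM in het and 240.1 in KO (KO/het 0.211, 0.196 to 0.226). It was at 1469 and 302 CPM in high cells, 330.1 and 113 in marker-low cells, and 1938.5 and 294 in cluster 3. After thinning, a Cxcl2 UMI was found in 44.3% of het and 18.9% of KO cells of cluster 13, and in 0.620% and 0.121% of cluster 1. In marker-low cells the thinned shares were 22.8% (12.7 to 35.8) and 12.7% (5.65 to 23.5), with overlapping intervals. Without thinning they were 36.8% in het and 39.7% in KO. Over all cells of cluster 13 Tnf, tumour necrosis factor, was at 112 and 46.1 CPM, and Ccrl2, a chemerin receptor, at 74.3 and 17.3. Nlrp3, an inflammasome sensor, was at 106 and 52.1 CPM.

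In marker-low cells 9 of 13 measured cytokine and chemokine genes were lower, 4 lower and 2 higher by 1.5-fold, with a median of -0.30. In high cells 14 of 16 were lower, with a median of -0.69. Il1b was at 770 CPM in het and 643 in KO over all cells. In high cells it was at 827 and 549, KO/het 0.664 (0.621 to 0.710), and in marker-low cells at 486 and 999, KO/het 2.06 (1.83 to 2.32). The difference between the sets was not tested. In the late range of marker-low cells Il1b was at 2208 CPM in het and 3332 in KO, and in the early range at 294 and 270.1. The late range held 91952 of 836153 het UMIs and 182497 of 843596 KO UMIs of the marker-low cells. Macrophage markers summed to 380.3 CPM in het and 849 in KO in marker-low cells. The part of the late range and of the macrophage markers in the Il1b values was not tested. Osm, oncostatin M, was higher in KO in both, at 90.5 and 113 CPM in high cells and 139 and 202 in marker-low cells. Ccrl2 in marker-low cells was at 32.3 and 21.3 CPM, with an interval of the ratio from 0.343 to 1.24.

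The upstream windows of Cxcl2 and Nfkbia are shown because both genes are among the first 12 lower in KO. Capitals mark matches to the NF-kB-type motif GGGNNNNNCC on either strand.
Cxcl2 (chr5:90903649-90903870, plus strand): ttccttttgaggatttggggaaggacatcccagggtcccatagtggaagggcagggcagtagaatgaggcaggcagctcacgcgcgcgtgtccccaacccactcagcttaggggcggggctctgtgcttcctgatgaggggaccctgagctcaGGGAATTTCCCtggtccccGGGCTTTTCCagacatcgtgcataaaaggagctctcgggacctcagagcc
Nfkbia (chr12:55492648-55492897, minus strand): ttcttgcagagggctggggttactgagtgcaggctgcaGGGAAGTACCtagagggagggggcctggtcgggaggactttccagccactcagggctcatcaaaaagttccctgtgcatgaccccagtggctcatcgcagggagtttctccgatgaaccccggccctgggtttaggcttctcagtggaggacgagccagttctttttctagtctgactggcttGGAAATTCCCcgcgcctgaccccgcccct
Cxcl2 has 3 matches, of which 2 overlap in 1 run of capitals, and Nfkbia has 2. The windows of Tnf and Icam1 were also searched and held 1 each. At least 1 match is found in 41.7% of all promoters in a window like that of Cxcl2 and in 46.0% in one like that of Nfkbia. Binding was not measured.

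**Figure D4:**
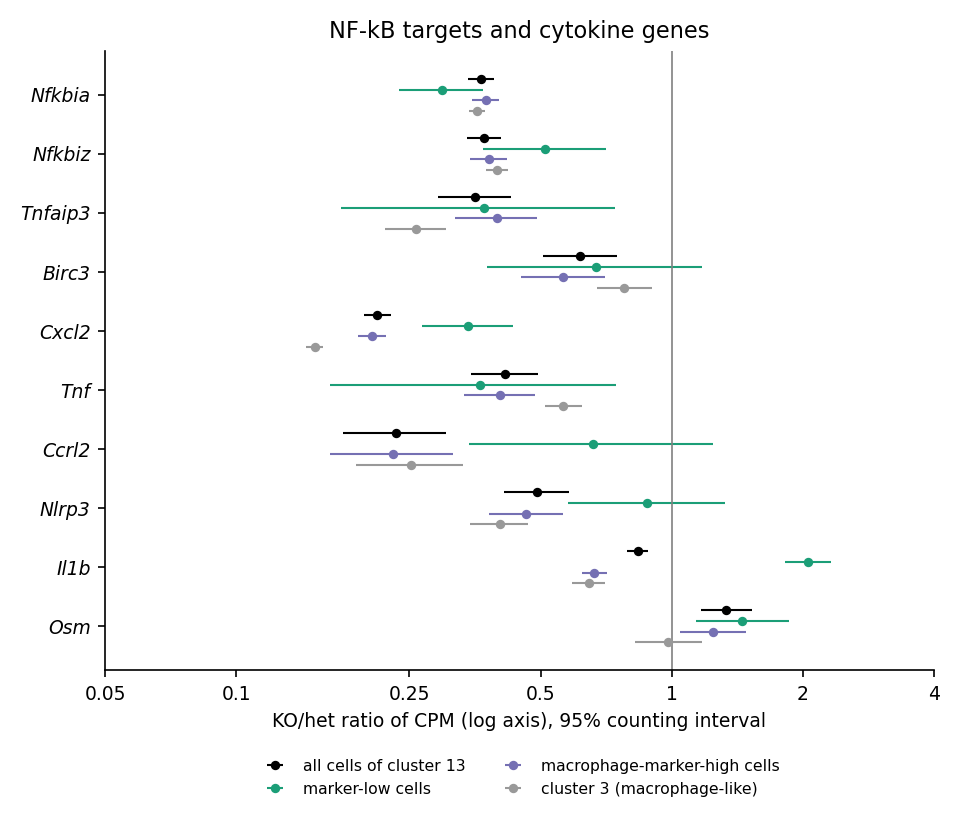
KO/het ratio of CPM on a log axis for NF-kB targets and cytokine genes in all cells of cluster 13, marker-low cells, macrophage-marker-high cells and cluster 3, with 95% counting intervals. Nfkbia and Cxcl2 lie below 0.5 in all 4 groups, and Il1b is on opposite sides of 1 in marker-low and high cells.

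Interferon response genes split. Of 16 measured, 6 were 1.5-fold lower, with a median log2 of -0.075 over all cells. Isg15, a ubiquitin-like protein, was at 57.8 CPM in het and 29.6 in KO, and Rsad2, the antiviral enzyme viperin, at 33.6 and 8.64, where 1 het cell held 55 of 118 UMIs. Without the top cell of each library KO/het of Rsad2 was 0.399, and in cells labelled male its log2 ratio was 0.15. In marker-low cells 10 of 14 were lower, 8 by 1.5-fold, with a median of -0.70. There single het cells held 41 of 46 het UMIs of Isg15, 24 of 26 of Ifit3, 18 of 23 of Rsad2 and 35 of 56 of Irf7. Without the top cell of each library, KO/het was 0.991 for Isg15, 1.32 for Oasl2 and 1.49 for Zbp1. For Irf7 it was still lower, at 0.755. The values of these genes thus rested in part or wholly on few cells.

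Transcripts of Il33 and of its receptor were sparse. Il33 had 15 UMIs in het and 3 in KO, and the labels do not say which part of the gene the allele replaces, so this is no check of the genotype. Il1rl1 had 38 UMIs in het and 23 in KO, or 10.8 and 5.67 CPM (KO/het 0.524, 0.298 to 0.903). A single het cell held 13 of the 38 het UMIs. A UMI was found in 11.4% of het and 8.89% of KO cells, against 1.08% and 1.33% of cluster 1, and after thinning in 0.599% and 0 of 180 cells, against 0.155% and 0.724%. The thinned share in cluster 13 is near that background. Kit, the stem cell factor receptor of progenitors and mast cells, was at 14.8 and 3.45 CPM.

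Genes of other cell types made up most of the rest of the first 12 in each direction. Lower in KO were Cma1, Spp1, Ptgds, Apod and Bglap, each with 1 het cell holding most of the het UMIs, up to 912 of 1127 for Spp1. Cma1 is a mast cell chymase, and mast cell or basophil markers summed to 241 CPM in het and 20.7 in KO. Car2, a carbonic anhydrase, was at 53.8 and 4.69 CPM, with 87 and 80 of 189 het UMIs in single cells, and Dusp2, a phosphatase induced on activation, at 125 and 39.5. Spp1 was higher in KO in male cells and with the top Scrublet scores left out.

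The 12 named genes higher in KO included matrix genes of fibroblasts and bone. Col3a1, a fibrillar collagen, was at 285 CPM in het and 607 in KO, Mgp, a calcification inhibitor, at 439 and 962, and Eln, elastin, at 52.7 and 144. Thbs2, Aspn, Col6a3 and Cthrc1 are also matrix genes, and Ctsk and Acp5 are osteoclast enzymes. Single KO cells held 90 of 202 KO UMIs of Acp5, 74 of 236 of Ctsk, 43 of 122 of Cthrc1 and 37 of 113 of Aspn. Without the top cell of each library KO/het was 2.55 for Acp5, 3.42 for Ctsk, 2.28 for Cthrc1 and 3.87 for Aspn. Fibroblast or osteolineage markers were over their limit in 2 of 69 het and 10 of 82 KO macrophage-marker-low cells (KO/het 4.21, 0.897 to 39.5). Over all of cluster 13 the ratio of this share was 1.32 (0.706 to 2.51). In macrophage-marker-low cells these markers summed to 654 CPM in het and 6108 in KO. In macrophage-marker-high cells they summed to 5330 and 4369 CPM, with 6 of 10 lower in KO. In marker-low cells, from which those cells are left out, Col3a1 was at 56.2 and 113 CPM and Mgp at 63.4 and 155. Gxylt2, Cdkn1c and Serpinb9 complete the named genes, with Cdkn1c, a cell cycle inhibitor, at 46.7 and 119 CPM. The part of stromal RNA in these ratios was not tested.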

How the data were processed

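Droplet single-cell libraries of dural meninges were analysed, 1 per Il33 genotype. The authors deposited raw counts of unique molecular identifiers (UMIs) for each gene in each cell. Per the submitters' processing notes, Cell Ranger 3.0.2 and mm10 were used. For the annotation and the filter on cells, the details were not given in the sources used here. Cluster numbers, the library and sex labels, and the percent of mitochondrial UMIs of each cell were deposited by the authors. The UMI sum of each of 12544 cells equalled the deposited total.

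UMIs were summed over the cells of cluster 13 in each library and scaled to counts per 1000000 of that sum (CPM). No edgeR-type model was fitted, because 1 library per genotype leaves no replicate. Intervals are 95%: exact Poisson for CPM, Clopper-Pearson for shares, and conditional binomial for KO/het ratios. The last is too wide for ratios of large shares. PCR and pooling error is outside them, so all cover counting error only.

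Genes were compared where both libraries together held at least 100 UMIs and, in 1 library or the other, 10% of cells held one; they were called at 1.5-fold. The first 12 genes in each direction, ranked by the interval bound nearest to 1, were named, leaving out mitochondrial, ribosomal protein, hemoglobin, receptor segment, sex-linked and predicted genes. Members of 30 lists (385 entries, of which 380 are in the table) could also be named, with a minimum of 20 UMIs for a list median. The first 20 genes by fold over all other annotated cells (pseudocount 5 CPM) describe the cluster. The members and lists were chosen with earlier results of these data known. The stage score took cells with at least 20 UMIs of its 10 genes. The split by macrophage markers, its limit, the sum of 15 neutrophil genes and the marker-low set were chosen after the data were seen. Scripts ran in Python 3.11.15 with numpy 2.4.6, scipy 1.17.1, pandas 2.3.3 and matplotlib 3.10.9. Scrublet (scanpy 1.11.5) marked 3 het and 1 KO cell as doublets, so its calls were not used; only its ranking served, in an alternative. Other alternatives were cells of 1 sex label, a depth limit and cells without an Mki67 or Top2a UMI. Scaling, list and count minimums were also varied, and the top cell of each library was left out. Gene positions are from GENCODE M21 (GRCm38), and upstream sequences are from RefSeq (GRCm38.p6). The ratio script was tested on simulated data.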

Additional observations from a re-analysis of the deposited data

Results flagged for a closer look

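Female-labelled and male-labelled cells gave KO/het values past 1.5-fold in opposite directions for 3 genes, and the difference between the sexes was not tested. The label follows the presence of an Xist UMI, so male-labelled cells can include shallow female cells. Serpinb9, a serpin that inhibits granzyme B, had a log2 ratio of -0.77 in female cells and 4.26 in male cells. The male KO value rested largely on 1 cell that held 44 of 83 UMIs, and het male cells held 3 UMIs. Elane, neutrophil elastase, had -1.99 in female cells and 4.68 in male cells. Het female cells held 1097 Elane UMIs, het male cells 1, KO female cells 275 and KO male cells 37. Prtn3, proteinase 3, had -2.21 in female cells and 5.17 in male cells, from 956 het female, 2 het male, 205 KO female and 104 KO male UMIs. For both genes 1 KO male cell held most of the male KO UMIs, with 35 for Elane and 99 for Prtn3.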

How the results depend on the processing

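No paired analysis was possible because each genotype has 1 library. With n = 1, limits are set by the animals, the sort and the few cells that carry the primary granule genes, none of which the intervals cover; the sets split by macrophage markers were chosen after seeing the data. Among the shares and the 7 list medians of granule, mature neutrophil, cell cycle, NF-kB and cytokine genes, settings not given here stayed within the counting or order-statistic interval. Other lists were compared only between cell sets; in marker-low cells the median was 0.37 for retention and trafficking, 0.25 for cytokine receptor, 0.25 for immediate early, -0.31 for ribosomal protein and 0.28 for apoptosis genes, each outside its interval over all cells. Thinned to 1000 UMIs, the KO/het ratio of the cell cycle share was 0.724. The count of genes at least 1.5-fold higher in KO was 94 with the top Scrublet scores left out, 259 by the mean of CPM per cell, 101 in macrophage-marker-high cells, 876 at a minimum of 20 UMIs, 1995 with no minimum and 34 at 2-fold. The count lower was 90 in male cells, 59 in marker-low cells, 714 at 20 UMIs, 1600 with no minimum and 46 at 2-fold. In male cells the median log2 ratio was 0.12 for primary granule, -0.068 for tertiary granule and -0.077 for mature neutrophil genes, and in female cells -1.92, 0.35 and 0.10. Without cells holding an Mki67 or Top2a UMI it was 0.30 for secondary granule, -0.013 for tertiary granule and -0.10 for cell cycle genes. The last list contains both genes. In macrophage-marker-low cells the mature neutrophil median was 0.13, and in marker-low cells 0.17, with -0.37 for cell cycle genes. Of 66 genes, the sign was kept by 53 of 62 measured in male cells and 61 of 66 in female cells. It was kept by 50 of 56 in marker-low cells and 57 of 64 in macrophage-marker-low cells. Without cells holding an Mki67 or Top2a UMI 48 of 59 kept it, and by the mean of CPM per cell 60 of 66. Among genes at least 1.5-fold apart over all cells, some had log2 ratios of opposite sign. In male cells these included Spp1 0.20, Rsad2 0.15, Aspn -0.085, Elane 4.68 and Prtn3 5.17, and in female cells Serpinb9 -0.77. With the top Scrublet scores left out they included Spp1 0.40, and without cells holding an Mki67 or Top2a UMI Fcnb 0.54. In macrophage-marker-low cells they included Ptgds 1.42 and Apod 0.31, and in marker-low cells Ptgds 2.19. The cause was not tested.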

Other observations

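Barcodes outside the authors' annotated set also carried neutrophil transcripts. Of 4986 such het barcodes, 36 had at least 1% of their UMIs from the 15 neutrophil genes (0.722%, Clopper-Pearson 0.506 to 0.998), and of 5452 KO barcodes 36 did (0.660%, 0.463 to 0.913). These barcodes were deep, with a median of 53138.5 UMIs and 7543 genes in het and 62508 UMIs and 7736.5 genes in KO. Of them, 25 in het and 30 in KO passed the macrophage-marker limit of 20 UMIs per 10000. More than 7500 genes were detected in 19 of the het and 23 of the KO barcodes.

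Other clusters held few such cells. At least 100 UMIs of the 15 genes were found in 16 of 183 cells of cluster 18 (monocyte genes). They were also found in 16 of 380 cells of cluster 12 (mast cell, basophil and primary granule genes). In cluster 12 Elane was at 1371 CPM in het and 775 in KO, and Prtn3 at 1831 and 1065. Elane was at 224 and 236 CPM in cluster 18, and Prtn3 at 725 and 485. In cluster 18 Ngp stood at 4.75 CPM in het (6 UMIs) and 1328 CPM in KO (1686 UMIs), and Camp at 3.96 and 2016 CPM. Csf3r, the receptor for granulocyte colony-stimulating factor, was at 69.7 and 70.9 CPM there.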
